A study of Mus musculus with 18 samples.

Results

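A set of 10 genes, of 53672 listed, had almost no reads in untreated mouse embryonic stem (ES) cells and were read in every library of both HDAC1 mutant lines after 4-hydroxytamoxifen (OHT). They were chosen by their raw counts, as the genes with 3 or fewer counts in each of the 9 untreated libraries and 10 or more in each of the 6 OHT-treated HDAC1-E63R and HDAC1-Y48E libraries. Of the genes listed, 29759 met the limit in the untreated libraries and are called silent here, and 13 of these also met the limit after OHT. The keratin genes Krt5, Krt6a and Krt14 were left out by symbol, which left Akr1cl, Ccl20, Il24, Abcc9, Astn1, Styk1, Gm15852, Gm28502, Gm44323 and Gm48419. Because the selection used the untreated libraries and the treated mutant libraries, the rise after OHT in the mutants is a description of how the genes were found. The OHT-treated HDAC1-WT libraries did not enter the selection. The treated mutant libraries entered it through the lower limit of 10 counts, which was the same for both lines. The difference between these lines was not used as such, but the limit bears on it. Fewer silent genes met the limit in treated E63R (16) than in treated Y48E (145).

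RNA-seq had been carried out on E14TG2a ES cells, an established mouse line, in which both Hdac1 and Hdac2 carry lox sites. The cells had been transfected by piggyBac transposition to express Flag-tagged HDAC1 stably, either wild type (HDAC1-WT) or with the surface change E63R or Y48E, and each of these 3 lines was sequenced without and with 1 µM OHT, in 3 libraries per group. OHT deletes the endogenous Hdac1 and Hdac2, so treated cells depend on the introduced HDAC1. The labels give 5 days of OHT, whereas the methods give a shorter exposure followed by culture without it. Untreated cells of every line hold the endogenous enzymes together with the introduced one, and whether a line is a pool or a clone is not given in the sources used here. The study calls the libraries of a group biological replicates, and the p-values measure the spread between them.

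HDAC1 and HDAC2 remove acetyl groups from lysines of the histone tails, and act within corepressor complexes that transcription factors bring to promoters and enhancers. Acetylated histones mark transcribed genes. Genes of specialised tissues, such as cytokines, ion channel subunits and detoxifying enzymes, are commonly off in ES cells.

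The libraries held 9019615 to 11454638 counts on genes. A count of 0 allows up to 3 counts, or 0.262 to 0.333 CPM (counts scaled to a common total on genes), and this covers counting error only. The libraries of a group differed beyond sampling noise in every pair, with a chi-square per degree of freedom of 3.38 to 67.1, and the 2 highest values (60.4 and 67.1) both involved replicate 3 of untreated E63R. Without that library 16 genes met the limits, among them all 10. Hdac1 had 2104 to 2215 counts in untreated HDAC1-WT, 1751 to 2024 in treated HDAC1-WT, 840 to 1192 in both untreated mutant lines and 1097 to 1359 in both treated ones. Hdac2 had 1167 to 1502 counts in treated HDAC1-WT against 1861 to 2237 untreated, and 1350 to 1833 across the mutant libraries. Neither gene was called as changed after OHT in any line, and counts over the whole gene do not check a deletion of part of it. All 12 ES cell markers examined were detected in each group. Their summed level untreated was 9021 to 9067 CPM in HDAC1-WT, 6241 to 7984 CPM in E63R and 6837 to 6861 CPM in Y48E. After OHT it was 9583 to 10464 CPM in HDAC1-WT, 5760 to 6063 CPM in E63R and 3610 to 3822 CPM in Y48E.

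Among the 10 genes 2 encode secreted signals. Ccl20 is a chemokine that draws immune cells bearing the receptor Ccr6. It had 0 counts in all 9 untreated libraries and in the 3 treated HDAC1-WT libraries, 20, 16 and 24 counts in treated E63R, and 65, 69 and 56 counts in treated Y48E. The mean level in treated E63R was at least 6.65-fold that in untreated E63R. In treated Y48E it was at least 20.6-fold that in untreated Y48E. Both take 3 counts per library for the groups at 0. In bulk RNA fewer cells that read a gene, and less RNA per cell, cannot be told apart. The receptor gene Ccr6 had 0 counts in all 18 libraries.

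Il24 encodes a cytokine of the interleukin-10 family that signals through receptors built from Il20ra or Il22ra1 with Il20rb. It too was at 0 in the 9 untreated and the 3 treated HDAC1-WT libraries, and had 36, 22 and 27 counts in treated E63R and 31, 48 and 35 in treated Y48E. The mutant groups overlapped in counts. In CPM the libraries stood at 3.44, 4.80 and 3.48 in treated Y48E and at 3.14, 2.21 and 2.78 in treated E63R. These levels were at least 9.29-fold (E63R) and at least 12.3-fold (Y48E) higher than in their own untreated libraries. The related cytokine genes Il10, Il19 and Il20 had at most 3 counts in any library. Among the receptor genes, Il20ra had at most 2 counts in any library, Il20rb at most 11 and Il22ra1 at most 18.

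Akr1cl encodes a protein of the aldo-keto reductase family, whose enzymes reduce carbonyl groups with NADPH. It was the most counted of the 10. Its counts were 83, 102 and 71 in treated E63R and 709, 754 and 646 in treated Y48E, against 1 count in each of 2 untreated libraries, 0 in the other 7, and 4, 0 and 0 in treated HDAC1-WT. In CPM the treated means were 8.27 ± 1.72 in E63R and 72.8 ± 7.52 in Y48E (SD, n = 3). Akr1cl alone made up 25.3 to 36.7% of the counts on the 10 genes in treated E63R and 59.0 to 63.6% in treated Y48E. The 250 bases before its start, from the RefSeq promoter table (GRCm38.p6, minus strand), hold no CpG and are shown because Akr1cl was the most counted gene. Capitals mark CCAAT, or its reverse complement ATTGG.
Akr1cl, chr1:65032760-65033009: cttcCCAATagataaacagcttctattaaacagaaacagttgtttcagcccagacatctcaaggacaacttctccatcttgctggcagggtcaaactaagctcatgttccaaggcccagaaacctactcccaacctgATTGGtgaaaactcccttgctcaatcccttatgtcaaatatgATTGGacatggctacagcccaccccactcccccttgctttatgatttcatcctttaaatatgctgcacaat

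Abcc9 encodes SUR2, the regulatory subunit of ATP-sensitive potassium channels, which pairs with a pore subunit encoded by Kcnj8 or Kcnj11. It had 18, 14 and 14 counts in treated E63R and 18, 32 and 23 in treated Y48E. It was also the least silent member, with 8 counts over the untreated libraries and at most 3 in 1 library, and it had 0, 9 and 0 counts in treated HDAC1-WT. Kcnj8 had at most 2 counts in any treated mutant library and Kcnj11 had 4 to 23, within reach of its 2 to 19 in untreated libraries. The paralogue Abcc8, which encodes SUR1, was read without treatment (3 to 17 counts). It had 92 to 138 counts in treated Y48E, 4 to 49 in treated E63R and 3 to 25 in treated HDAC1-WT.

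Styk1 encodes a kinase-like membrane protein. It had 17, 14 and 22 counts in treated E63R, 11, 19 and 21 in treated Y48E, 1 count over the 9 untreated libraries and 0, 0 and 1 in treated HDAC1-WT. Astn1 encodes astrotactin, a membrane protein of migrating neurons. It had 12, 13 and 16 counts in treated E63R, 15, 33 and 10 in treated Y48E, 1 count over the untreated libraries and 0, 0 and 3 in treated HDAC1-WT. Both genes had overlapping mutant groups and lay close to the limit of 10 counts. The paralogue Astn2 had 0 to 3 counts in treated E63R and 8 to 19 in treated Y48E.

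Of the 10 genes 4 carry provisional symbols and have no established role. Gm28502, annotated as a long intergenic non-coding RNA, was at 0 in the 9 untreated and 3 treated HDAC1-WT libraries, and had 41, 22 and 42 counts in treated E63R and 173, 149 and 194 in treated Y48E. The levels were at least 11.5-fold (E63R) and at least 56.0-fold (Y48E) higher than in their own untreated libraries. Gm48419, of the same class, had 22, 12 and 19 counts in treated E63R, 55, 27 and 58 in treated Y48E, 7 over the untreated libraries and 0, 2 and 0 in treated HDAC1-WT. All of its 50-base stretches also occur in Gm48423, and 98.2% of them in Gm7969, so its counts could be split among near-identical copies. Gm48423 had at most 2 counts in treated E63R and 4 to 17 in treated Y48E.

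The other 2 provisional transcripts overlap a gene on the opposite strand, and whether counting used strand is not given in the sources used here. Gm44323, annotated as a microRNA gene of 129 bases, had 25, 32 and 31 counts in treated E63R, 29, 37 and 34 in treated Y48E, 0 in the 9 untreated libraries, and 0, 13 and 0 in treated HDAC1-WT. All 129 bases lie within coding sequence of Krt5, of whose exons they are 5.87%. Krt5 encodes a keratin of basal epithelial cells and was one of the 3 genes left out by symbol. Its sequence is shown because no read from it could be told apart by sequence from a read of Krt5. It is written on the plus strand of GRCm38, opposite to Krt5, and no base is in capitals.
Gm44323, chr15:101710274-101710402: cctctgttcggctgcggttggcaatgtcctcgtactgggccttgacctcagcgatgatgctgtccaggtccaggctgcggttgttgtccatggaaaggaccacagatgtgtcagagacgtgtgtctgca
Krt5 itself had 147, 122 and 107 counts in treated E63R, 143, 177 and 174 in treated Y48E, 7, 9 and 6 in treated HDAC1-WT and at most 2 in an untreated library. In the 6 treated mutant libraries the Gm44323 count was 17.0 to 29.0% of the Krt5 count of the same library, whereas in replicate 2 of treated HDAC1-WT it was 13 against 9. Gm15852, a processed transcript, had 22, 31 and 15 counts in treated E63R, 24, 17 and 18 in treated Y48E, 1 over the untreated libraries and 0 in treated HDAC1-WT. It shares 621 bases, or 67.9% of its exons, with Ccdc190. Ccdc190 had 28, 40 and 28 counts in treated E63R and 28, 41 and 22 in treated Y48E, and missed the limit for silent by 1 count, with 4 in replicate 3 of untreated E63R. The Gm15852 count was 41.5 to 85.7% of the Ccdc190 count. The strand from which the counts of either pair came was not tested. Whether the libraries themselves kept strand is not given in the sources used here, and if they did not, reads of the gene and of its partner cannot be told apart in either pair. Reads on no annotated feature made up 42.9 to 45.9% of the entries of a library, and their part in these counts was not tested.

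**Figure D1:**
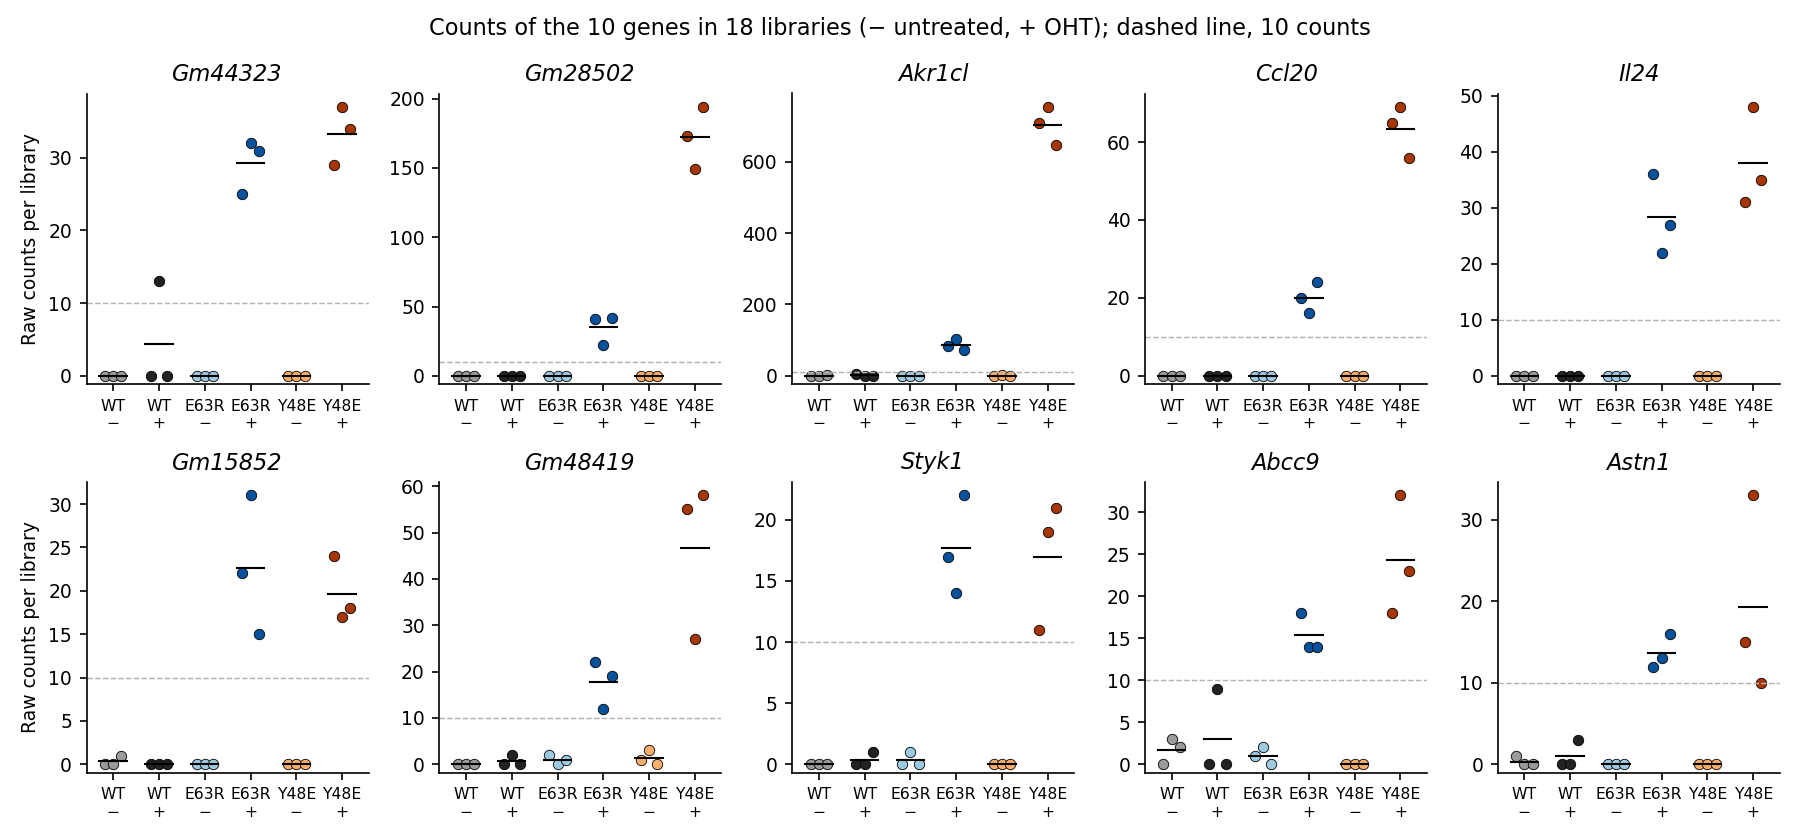
Raw counts of each of the 10 genes (y axis, one scale per panel) in the 6 groups (x axis, - untreated and + OHT), with 1 point per library, a bar at the mean of 3 and a dashed line at 10 counts. The untreated libraries lie at 3 counts or fewer and the treated mutant libraries at 10 or more, as the selection requires, while of the treated HDAC1-WT libraries the highest point is 13 counts for Gm44323.

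**Figure D2:**
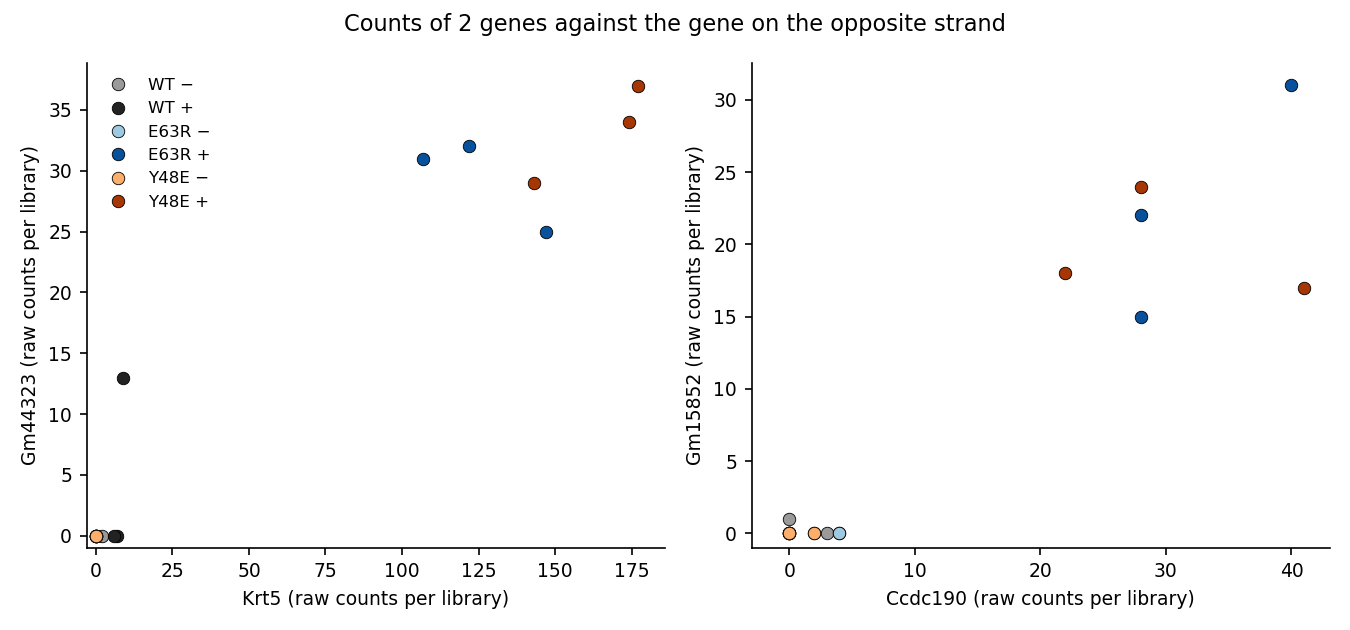
Counts of Gm44323 against Krt5 (left) and of Gm15852 against Ccdc190 (right), 1 point per library, coloured by group. The treated mutant libraries stand apart from the others on both axes of both panels. Against the untreated libraries the selection requires this for Gm44323, Gm15852 and Krt5. The treated HDAC1-WT library with 13 Gm44323 counts has 9 Krt5 counts.

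Levels are comparable between genes only per length. In CPM per kb of exon, averaged over the 6 treated mutant libraries, the order was Gm44323 (24.4), Gm28502 (22.2), Akr1cl (9.63), Ccl20 (2.99), Il24 (2.39), Gm15852 (2.32), Gm48419 (1.14), Styk1 (0.295), Abcc9 (0.237) and Astn1 (0.169). The place of Gm44323 rests on division by 129 exon bases, fewer than a single read of the study spans, so its level per length is uncertain. Its mean was 3.15 CPM, against 40.5 CPM for Akr1cl. The order was not the same in the 2 lines. Akr1cl stood at 1.96 ± 0.408 CPM per kb in treated E63R, level with Il24 and under Gm15852, and at 17.3 ± 1.79 in treated Y48E. In treated E63R Gm44323 stood at 22.2 ± 4.57 and Gm28502 at 7.08 ± 2.25 CPM per kb (SD, n = 3), and in treated Y48E they stood at 26.6 ± 1.92 and 37.4 ± 5.26. Ccl20, Il24 and Gm15852 stood at 1.37 ± 0.326, 1.96 ± 0.339 and 2.40 ± 0.896 in treated E63R, within their spread of the next in order, and at 4.62 ± 0.611, 2.82 ± 0.559 and 2.24 ± 0.579 in treated Y48E, in the opposite order. In treated E63R Styk1, Abcc9 and Astn1 stood at 0.293 ± 0.0808, 0.176 ± 0.0104 and 0.136 ± 0.0305 CPM per kb. The coefficient of variation of the CPM values between replicates had a median of 23.2% over the 10 genes in treated E63R and of 22.5% in treated Y48E, and was highest for Astn1 in treated Y48E (59.7%).

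In OHT-treated HDAC1-WT cells the 10 genes were at or close to 0. The 3 libraries held 4, 24 and 4 counts on all 10 genes together, against 278 to 296 in treated E63R, 1095 to 1185 in treated Y48E and 0 to 4 in an untreated library. Ccl20, Il24, Gm28502 and Gm15852 had 0 counts in each of the 3 libraries, and no gene had more than 3 counts in each. Akr1cl (4), Abcc9 (9) and Gm44323 (13) exceeded 3 counts in 1 library each, the last 2 both in replicate 2, which held 24 of the 32 counts. With replicate 2 left out, the highest count of any of the 10 genes was the 4 of Akr1cl.

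The same counts were taken over all silent genes, of which the 10 are part. Of the 29759 silent genes 91.6% had 0 counts in all 3 treated HDAC1-WT libraries, against 4 of the 10 genes. More than 3 counts in at least 1 of these libraries were found for 3.34% of the silent genes (995) and for 3 of the 10. More than 3 counts in each were found for 11 silent genes and for none of the 10. In untreated libraries 87.1% of the silent genes were at 0 throughout, against 4 of the 10. With edgeR, 0 of the 10 were called higher after OHT in HDAC1-WT, where called means an adjusted p under 0.01 and a change over 2-fold, and 0.0373% of the 18791 tested genes were. The untreated HDAC1-WT libraries were limited to 3 counts by the selection, and genes near 0 in HDAC1-WT passed the filter through the treated mutants, so this count says nothing of the level in HDAC1-WT. At an unadjusted p under 0.05 there was 1 of the 10, Gm44323 (edgeR adjusted p = 0.352), through the 13 counts of 1 library. DESeq2 also called 0 of them. For Ccl20, Il24 and Gm28502 both HDAC1-WT groups are at 0 and the test has no content.

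For the record of the contrasts that the selection used, edgeR called 9 of the 10 higher after OHT in E63R, where 4.74% of tested genes were, and all 10 in Y48E, where 10.8% were. Abcc9 was the one not called in E63R (adjusted p = 0.0344). Only 178 of the 29759 silent genes had enough counts to be tested, and a silent gene passed that filter through the groups where it is high.

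**Figure D3:**
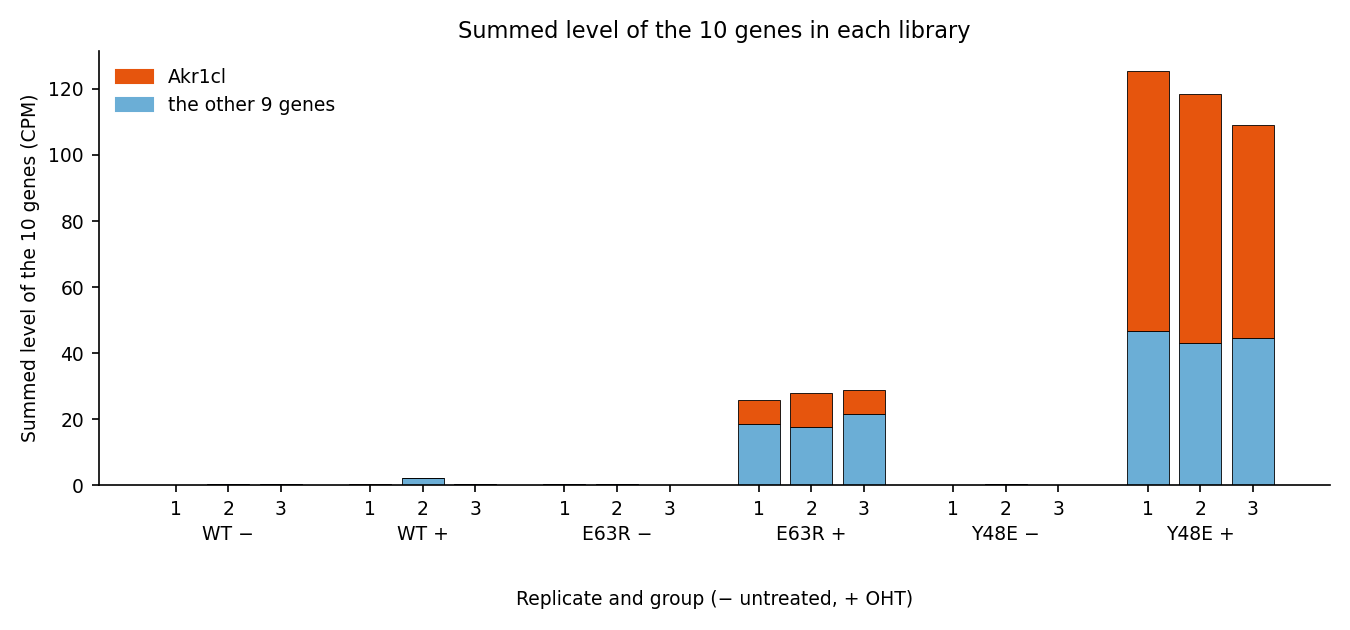
Summed level of the 10 genes in CPM (y axis) in each of the 18 libraries (x axis, by group and replicate), divided into Akr1cl (orange) and the other 9 genes (blue). The treated E63R libraries reach 25.8 to 28.9 CPM and the treated Y48E libraries 109.0 to 125.3 CPM, while treated HDAC1-WT reaches at most 2.20 CPM.

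The mutant lines differed after OHT in the level of 2 of the 10 genes. Akr1cl was higher in treated Y48E than in treated E63R by 3.07 on the log2 scale (SE 0.28, 95% interval 2.48 to 3.66, edgeR adjusted p = 1.66e-07). Gm28502 was higher in Y48E by 2.33 (SE 0.41, interval 1.44 to 3.21, adjusted p = 0.00114). These 2 of 10 called higher stand beside 2.37% of all 18791 tested genes, and 0 of 10 called lower beside 2.12%. The limit of 10 counts bears on these libraries, and more on E63R, where fewer silent genes met it, so that nothing about the set is read from these shares or from its median. At an unadjusted p under 0.05, 3 of the 10 were higher and none lower. The mean CPM in treated Y48E was 8.80 times that in E63R for Akr1cl and 5.28 times for Gm28502.

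For the other 8 genes a difference between the mutants was not shown. Ccl20 was 1.68 higher on the log2 scale in Y48E (interval 0.36 to 3.01, edgeR adjusted p = 0.0762). Gm48419 was 1.44 higher (interval -0.13 to 3.01, edgeR adjusted p = 0.205). The point estimates for Abcc9, Astn1, Il24 and Gm44323 were 0.69, 0.51, 0.46 and 0.20, with intervals from -1.22 to 2.60, -1.33 to 2.35, -0.96 to 1.87 and -1.707 to 2.098. Styk1 (-0.05, interval -1.70 to 1.60) and Gm15852 (-0.16, interval -1.77 to 1.44) lay closest to 0 on the other side. All 8 intervals but that of Ccl20 include 0, and each of the 8 reaches beyond a 2-fold change. Over the 10 genes the median difference was 0.60, with 8 above 0, beside 0.01 over all tested genes, and it was 0.37 without replicate 2 of treated Y48E. The summed level of the 8 genes was 25.4 to 28.2 CPM in treated Y48E and 15.0 to 17.3 CPM in treated E63R. The largest parts of this gap lay in Ccl20 (mean 6.56 CPM in Y48E and 1.94 in E63R) and Gm48419 (4.86 and 1.69). The others differed less, among them Styk1 (1.74 and 1.72), and Gm15852 was lower in Y48E (2.05 and 2.19). Nothing about the set is read from the sum.

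The call for Gm28502 was lost without replicate 1 of treated Y48E (log2 difference 2.27, adjusted p = 0.0109) and without replicate 3 (2.27, adjusted p = 0.0119), and held when any of the other 4 treated mutant libraries was left out. Against a 2-fold threshold (glmTreat) its adjusted p was 0.0507. With only the 6 treated mutant libraries in the fit, 4 genes were called, Ccl20 (adjusted p = 0.000197) and Gm48419 (adjusted p = 0.00638) in addition. Over all tested genes that fit called 1012 higher in Y48E, against 445 with all 18 libraries.

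**Figure D4:**
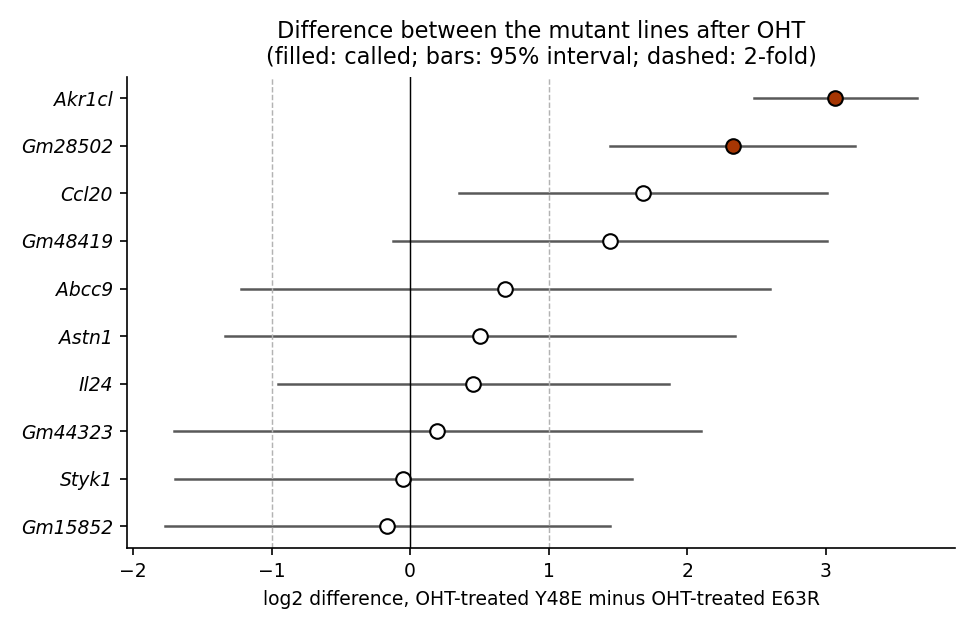
log2 difference of treated Y48E minus treated E63R (x axis) for each of the 10 genes (y axis), with its 95% interval as a bar, filled where called, and dashed lines at 2-fold. Akr1cl (3.07) and Gm28502 (2.33) are called and lie beyond 2-fold with their whole interval, and the other 8 intervals extend past a 2-fold line.

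By symbol, the 10 genes fell into few classes. Ccl20 and Il24 belong to the cytokine, growth factor and receptor class, which holds 20% of the 10 genes and 0.460% of the silent genes. Abcc9 counts as an ion channel or transporter and Akr1cl as a metabolic enzyme, classes with 0.470% and 0.692% of the silent genes. Predicted transcripts with Gm or Rik symbols made up 4 of the 10, beside 73.8% of the silent genes. Astn1 and Styk1 matched no class. None of the 10 was a transcription factor, a serpin or protease, a cadherin or a G protein coupled receptor by symbol. These classes hold 0.323%, 0.601%, 0.225% and 5.17% of the silent genes, so their absence among 10 genes is not read as a trait of the set. None stood in a list of cell type markers. These classes were sorted by letters of the symbol alone. Of all 18791 tested genes, 4.74% were called higher and 1.18% lower after OHT in E63R, and 10.8% and 5.84% in Y48E. Across all genes of the cytokine class, 36 of 354 tested were called higher and 8 lower after OHT in E63R, and 66 higher and 33 lower in Y48E. For ion channels and transporters these were 53 higher and 10 lower of 641 in E63R, and 109 and 43 in Y48E. For metabolic enzymes they were 36 and 10 of 461 in E63R, and 83 and 42 in Y48E.

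Of the 10 genes 5, Akr1cl, Ccl20, Il24, Astn1 and Gm15852, lie on chromosome 1 in the mm10 assembly (GENCODE M21), which holds 6.77% of the silent genes. They are spread over the chromosome, Akr1cl at chr1:65012689-65032759, Ccl20 at chr1:83116766-83119167, Il24 at chr1:130882074-130887454, Astn1 at chr1:158362273-158691781 and Gm15852 at chr1:169932698-169934248. Abcc9 (chr6:142587862-142702315) and Styk1 (chr6:131299142-131353597) share chromosome 6, Gm28502 (chr15:75076210-75079094) and Gm44323 share chromosome 15, and Gm48419 (chr13:67965483-67970239) stands alone. No pair lies within 100 kb. The share on chromosome 1 is a description of 10 genes and was not tested. Of the silent genes with 10 or more counts in each treated E63R library, 13 of 16 also had them in each treated Y48E library, while of those on in Y48E 13 of 145 were on in E63R. The 3 others on in E63R were Gm30692, Mettl7b and Serpina12. If a gene on in 1 mutant must also have 3 or fewer counts in each treated library of the other, 39 genes were on in Y48E alone and 0 in E63R alone. Of the 38 of these 39 that are annotated, 1 lies on chromosome 1.

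Of the 10 genes 6 are protein-coding, or 60%, beside 19.2% of the silent genes and 52.6% of those on in Y48E alone. Their exons are long, with a median of 2152.5 bases over the 10 genes against 656 over the silent genes, and of 5037 over the 6 protein-coding genes against 1957 over the protein-coding silent ones. A limit of 10 raw counts is reached more easily by a long transcript, and the part of length in the selection was not tested. Akr1cl shares 494 exon bases with the pseudogene Gm8550 on the other strand, which had at most 18 counts in a treated mutant library. Ccl20, Il24, Astn1 and Gm28502 share no 50-base stretch with another gene.

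Promoter windows of 250 bases before to 50 after the start were held for Akr1cl, Ccl20, Astn1 and Abcc9. CpG was scarce in the first 3, with 0, 3 and 2 in the window of 300 bases, and frequent in Abcc9 with 16. The ratio of observed to expected CpG had a median of 0.126 over these 4, 0.178 over the promoters of silent genes and 0.499 over all promoters. The sequences of Ccl20 and Abcc9 are shown as a CpG-poor and a CpG-rich example, and for Abcc9 the 41 bases that GENCODE places in an exon are left off. Capitals mark the letters GGGCGG (or CCGCCC) and GCCNNNGGC, 2 of which overlap by letters in Abcc9.
Ccl20, chr1:83116516-83116765: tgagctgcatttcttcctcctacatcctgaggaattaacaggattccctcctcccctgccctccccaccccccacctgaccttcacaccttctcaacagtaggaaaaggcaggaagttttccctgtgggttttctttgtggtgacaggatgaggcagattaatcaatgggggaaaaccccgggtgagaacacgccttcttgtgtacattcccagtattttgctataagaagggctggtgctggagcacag
Abcc9, chr6:142702316-142702524: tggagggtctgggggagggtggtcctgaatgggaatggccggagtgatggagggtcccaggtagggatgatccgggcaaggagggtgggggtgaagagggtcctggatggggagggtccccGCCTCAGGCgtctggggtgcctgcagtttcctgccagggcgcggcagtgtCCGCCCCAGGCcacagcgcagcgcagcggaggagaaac
Searched on both strands, CCAAT stood in 1 of the 4 windows (Akr1cl, first letters 246, 113 and 71 bases before the start) and in 38.2% of silent and 37.6% of all promoters. GGGCGG stood in 1 (Abcc9, 79 bases before the start), in 9.75% of silent and in 42.5% of all promoters. GCCNNNGGC also stood in 1 (Abcc9, 129 and 77 bases before), in 7.03% of silent and 18.6% of all promoters. CACGTG, and TATAAA on the sense strand from 40 to 15 bases before the start, were in none of the 4, and in 3.73% and 4.47% of silent promoters. These matches are letters in a window and no binding was measured.

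The genes around the 10 were examined out to 100 kb. Of 81 listed neighbours 53 were silent, and 23 could be tested. Of the 23, 4 were called higher after OHT in E63R, 11 in Y48E and 0 in HDAC1-WT, beside 4.74%, 10.8% and 0.0373% of all tested genes, and 1 was called lower in each mutant. Krt5 and Krt6a met the count limits themselves, so their rise was fixed by the selection, and Krt5 and Ccdc190 overlap one of the 10. Without these 3, the count was 1 of 20 in E63R, about the share of all tested genes, and 8 of 20 in Y48E. Among the 8 were 3 neighbouring Ly6 genes. Ly6g (0 counts untreated, 7 to 19 in treated Y48E) and Gm48424 (0 to 4 untreated, 16 to 25 in treated Y48E) passed the filter through the treated mutants. Nothing about the surroundings of the 10 genes is read from these shares. Around Gm28502 lies the Ly6 cluster, which encodes small membrane-anchored proteins of blood and other cells. Ly6a, the gene of the stem cell antigen Sca-1, had 279 to 380 counts in treated E63R and 1185 to 1248 in treated Y48E against 10 to 57 in the untreated mutant libraries, but also 98 to 190 in untreated and 169 to 217 in treated HDAC1-WT. Ly6a rose by 3.00 in E63R (adjusted p = 1.20e-07) and by 6.13 in Y48E (adjusted p = 3.06e-12) on the log2 scale. Ly6c1 had 21 to 31 counts in treated E63R and 98 to 141 in treated Y48E, against 0 to 7 untreated, and was called in Y48E.

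Beside Akr1cl stand the crystallin genes, whose proteins fill the lens. Crygd had 65 to 102 counts in treated Y48E and 3 to 27 in treated E63R, against 0 to 10 untreated, and was called in Y48E (log2 change 5.57, adjusted p = 0.000359) and not in E63R (1.66, adjusted p = 0.234). The difference of Crygd between the treated mutants did not pass (2.40, adjusted p = 0.0538). Krt6a, next to Gm44323 and Krt5, had 11 to 19 counts in treated E63R and 17 to 35 in treated Y48E against at most 1 untreated. Ldhb, a lactate dehydrogenase gene near Abcc9, was the one neighbour called lower and fell by 1.83 in E63R and fell by 3.47 in Y48E on the log2 scale. Around Il24 all 7 neighbours were silent and none could be tested, so that Il24 had no neighbour with enough reads. Around Ccl20 and Astn1 1 neighbour each was tested and none was called after OHT.

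**Figure D5:**
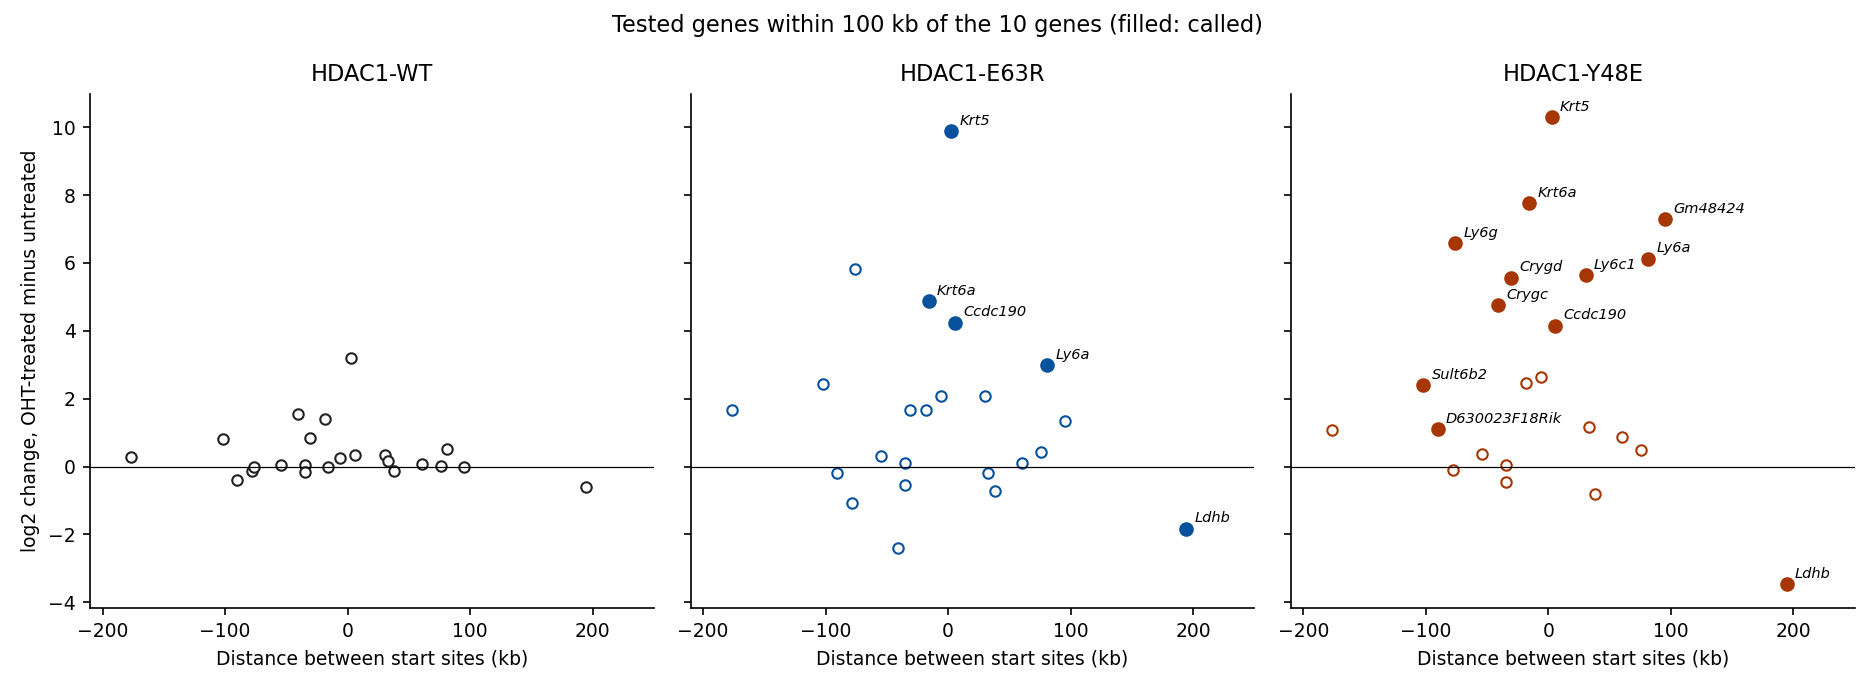
log2 change after OHT (y axis) of the 23 tested genes within 100 kb of the 10, against the distance between start sites in kb (x axis, positive downstream of the gene), in each of the 3 lines, filled where called. No point is filled in HDAC1-WT, 5 are in E63R and 12 in Y48E, with Ldhb below 0 in both mutants.

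The limits of the selection pass through a dense range of genes. Just inside the limit of 10 counts lay Astn1, Styk1 and Gm48419, with lowest treated mutant counts of 10, 11 and 12, and just outside lay Mcub, Csn3 and Serpina12 at 9. Just inside the limit of 3 untreated counts lay Abcc9 and Gm48419 at 3, and just outside lay Arg1, Gm5435 and Adgrg3 at 4. Outside the limits, 15 silent genes had a lowest treated mutant count of 7 to 9, and 33 genes that were on had a highest untreated count of 4 to 6. Akr1cl, Gm28502, Gm44323 and Il24 also met a limit of 20 counts.

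Markers of other cell types were also counted, beside the shares of all tested genes called higher (4.74% in E63R and 10.8% in Y48E) and lower (1.18% and 5.84%). The summed level of 20 epidermal and keratinocyte markers untreated was 116.1 to 126.7 CPM in HDAC1-WT and 83.8 to 95.2 CPM in the mutants. After OHT it was 130.7 to 139.1 CPM in HDAC1-WT, 247.2 to 267.6 CPM in E63R and 263.2 to 282.2 CPM in Y48E. Of the 14 tested, 4 were called higher and 0 lower in E63R, and 6 higher and 1 lower in Y48E. Flg, Sprr1b, Sprr2a1, Calml3 and Csta1 were at 0 in treated E63R, and Ivl, Sprr1b, Sprr2a1 and Calml3 in treated Y48E. For 22 trophoblast and placenta markers, 6 of 14 tested were higher and 1 lower in E63R and 8 higher and 0 lower in Y48E. Their summed level untreated was 268.1 to 275.8 CPM in HDAC1-WT, 120.3 to 122.4 CPM in E63R and 125.6 to 147.4 CPM in Y48E. After OHT it was 277.8 to 296.5 CPM in HDAC1-WT, 268.5 to 285.4 CPM in E63R and 316.6 to 339.2 CPM in Y48E. Tpbpa, Synb, Prl2c2 and Prl3b1 were at 0 in both treated mutants, as were Ctsq and Pappa2 in E63R. For 14 macrophage and lymphocyte markers, 0 of 5 tested were higher and 1 lower in each mutant. Their summed level was 25.1 to 31.9 CPM in treated mutants, 28.3 to 41.0 CPM in untreated mutants and 43.6 to 49.0 CPM in untreated HDAC1-WT. The 13 listed 2-cell embryo markers had a summed level of 74.9 to 176.9 CPM in the untreated mutants, 289.8 to 306.5 CPM in treated E63R and 575.0 to 581.7 CPM in treated Y48E, against at most 6.86 CPM in any HDAC1-WT library. Of 11 tested, 6 were higher and 0 lower in E63R, and 5 higher and 1 lower in Y48E, and Tdpoz1 was at 0 in treated E63R. Skeletal muscle markers went from 97.1 to 154.6 CPM in the untreated mutants to 230.9 to 268.7 CPM in the treated ones, with 3 of 7 tested higher in E63R, 4 in Y48E and 0 lower. Of 16 male germ cell markers tested, 2 were higher in E63R, 7 in Y48E and 0 lower in either. Of the 12 ES cell markers 1 was lower in E63R and 8 in Y48E, and none was higher. In the other 8 lists, with 3 to 12 markers tested in each, at most 2 were higher in E63R and at most 4 in Y48E. At most 1 marker of a list was lower in E63R. In Y48E 4 of 12 neuron and neural progenitor markers were lower and 1 higher, and at most 1 was lower in each of the rest. The part of these cell types in the levels of the 10 genes was not tested.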

How the data were processed

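Raw counts per gene symbol, deposited for 18 libraries, were used. Per the labels and the methods, the authors extracted total RNA, prepared libraries with the NEB Next Ultra kit, aligned reads to mm10 and counted them. The submitters' processing notes name HISAT2 2.1.0, SAMtools 1.9 and HTSeq. The annotation and strand setting are not given in the sources used here. The 5 entries naming no gene held 59.4 to 61.2% of entries and were left out. CPM used the gene total. Counts were tested with edgeR 4.0.16 in R 4.3.3 (quasi-likelihood, TMM factors, filterByExpr by group, 1 mean per group over all 18 libraries), with Benjamini-Hochberg adjustment over 18791 genes. The script, tested on simulated data for the comparison of the treated mutants, recovered 90.5% of 200 genes changed by 2 on the log2 scale among 18020 tested, with 1 false call. The changed genes were drawn from all genes above a low level in treated E63R and were not matched to the 10. Standard errors among the 10 reached 0.92 (Abcc9), so the 90.5% does not give the power for them. A fold against a group at 0 was computed against 3 counts per library. GENCODE M21 held 96.7% of symbols, and promoters came from RefSeq. Named genes were all 10 genes, those nearest the limits, and genes within 100 kb. Receptors, channel partners and paralogues were chosen after their values were seen. The 10 genes and all lists were chosen with earlier results of these data known. Alternatives were other normalization (RLE), no filter, a replicate block, fewer libraries, DESeq2 1.42.0, glmTreat, an adjusted p limit of 0.05, thinned counts and leaving out each library.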

Additional observations from a re-analysis of the deposited data

Results flagged for a closer look

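Of the 10 genes 2 are listed because their level after OHT differed between the mutant lines by a test of the difference itself. Akr1cl was higher in treated Y48E than in treated E63R by 3.07 on the log2 scale, and was called under all 14 alternatives. Gm28502 was higher by 2.33 on the same scale, and was called under 11 of the 14.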

How the results depend on the processing

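The number of genes that met the limits moved with the limits. It was 8 with at most 1 untreated count, 28 with at most 5, 43 with at least 5 treated mutant counts, 4 with at least 20, 8 with CPM limits and 10 (9 shared) on thinned counts. It was 25 to 31 when 1 replicate number was left out of every group, with all 10 kept, and 16 without replicate 3 of untreated E63R, an alternative chosen after seeing the data. None of the 10 genes had more than 3 counts in each treated HDAC1-WT library, also on thinned counts or with any of these 3 libraries left out, and none had 1 or more in each of the 3. The genes gained under other limits were not examined there. Called higher in treated Y48E than in treated E63R were 4 genes with only the 2 groups in the fit and 1 with glmTreat. When 1 library was left out the count was 1 to 2 (1 without replicate 1 or 3 of treated Y48E). Over all tested genes these counts were 1012, 73 and 274 to 314, against 445 in the main fit. In E63R after OHT the count fell from 9 to 4 with only the 2 groups and to 4 with glmTreat. It was 5 to 7 when 1 library was left out. The 5 came without replicate 1 of untreated E63R, or replicate 2 or 3 of treated E63R. Over all tested genes, those called higher went from 890 to 298, 179 and 681 to 919 under the same settings. The cause of the fall was not tested. When 1 library was left out, the log2 difference between the treated mutants reversed its sign for Astn1 without replicate 2 of Y48E (range -0.074 to 0.83), for Gm15852 without replicate 2 of E63R (-0.40 to 0.17), and for Styk1 without replicate 1 of Y48E (0.15) or replicate 3 of E63R (-0.20 to 0.19). The median difference lay between 0.37 and 0.79 when 1 library was left out. At this depth the 95% intervals of 8 of the 10 genes reached beyond a 2-fold difference.

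Any pairing of the libraries by replicate number was weak. The correlation of deviations from the group means lay between -0.02 and 0.04 over 12 same-numbered pairs. Each treated Y48E library correlated best with the same-numbered library of treated E63R and of untreated Y48E. In the other comparisons this held for some replicates only. With the number as a replicate block, 2 genes were called between the treated mutants, 7 in E63R, 10 in Y48E and 0 in HDAC1-WT. Over all tested genes 408, 826, 1949 and 3 were called higher, against 445, 890, 2030 and 7 without the block. The median difference between the treated mutants was 0.54 with the block.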
